A study of Saccharomyces cerevisiae with 12 samples.

Results

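The small subunit of the mitochondrial ribosome is described here through its 31 listed nuclear genes in S. cerevisiae: the small-subunit MRP and MRPS genes, NAM9, the RSM genes, PET123 and SWS2. They were taken by systematic identifier from a count table of 7123 genes, and all 31 passed the minimum of 10 reads over all libraries that left 6490 genes for testing. Poly(A) RNA was sequenced from W303-derived cells that carry the HO endonuclease under a galactose-inducible promoter (P_GAL-HO). Cells grew in YEP medium with 2% raffinose and were arrested in G2/M with 80 μg/ml benomyl for 3 hours, and the samples after DSB induction were taken after 1 further hour with 2% galactose. The 4 groups were rad30Δ cells after DSB induction, G2/M arrested rad30Δ cells, WT cells after DSB induction and G2/M arrested WT cells, with 3 libraries each. RAD30 encodes the translesion polymerase Polη, and the study asked how its absence changes transcription before and after breaks.

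Mitochondria translate a handful of proteins of the respiratory chain and the ATP synthase on their own ribosomes. The small subunit of these ribosomes binds the mRNA and holds the decoding site. Its 15S rRNA and the protein Var1 are encoded by the mitochondrial genome, whereas all other protein parts are encoded in the nucleus, made in the cytosol and imported. Of the 31 genes, 19 encode proteins with a homolog in the bacterial small subunit, and 12 encode proteins particular to mitochondrial ribosomes or associated with them. In yeast, mRNAs for mitochondrial ribosomal proteins are known targets of Puf3, an RNA-binding protein of the Pumilio family that recognises a short element after the stop codon and controls how fast these mRNAs decay and where they are translated.

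The Puf3-type letters TGTANATA were therefore looked for on the sense strand in the 200 bases after each stop codon, in the R64 genome (sacCer3). They were present for 30 of the 31 genes (96.8%), against 14.1% of 5986 nuclear protein-coding genes and 44 of 44 genes of the large subunit. RSM22 was the member without a match in this window. There were 25 members with 1 match, 4 with 2 matches (MRP1, MRPS5, MRPS16 and RSM24) and 1 with 3 matches (RSM19). The first match began 8 to 139 bases after the stop codon, with a median of 54.5, and read TGTAAATA in 17 members, TGTATATA in 7 and TGTACATA in 6. The first match is shown for each of the 7 members with the smallest adjusted p. It is also shown for MRPS12, the member with the highest level per length. Each is printed 5′ to 3′ with 8 bases on each side, the matched letters in capitals.
NAM9, chrXIV:368525-368548, minus strand: ctttacacTGTAAATAtttaattt
MRP51, chrXVI:327700-327723, plus strand: cagagttcTGTAAATAaataaaga
MRP21, chrII:49404-49427, plus strand: tccgtcttTGTAAATAggtaatgc
MRPS35, chrVII:830215-830238, plus strand: ttattactTGTACATAaaatattc
MRP1, chrIV:1170186-1170209, plus strand: gtagtctcTGTAAATAtataaagt
MRPS17, chrXIII:636220-636243, minus strand: ctacactcTGTAAATAtatacaac
PET123, chrXV:633223-633246, plus strand: tatgcccaTGTATATAcgtcactt
MRPS12, chrXIV:694272-694295, minus strand: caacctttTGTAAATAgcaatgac
The matches lie outside the coding sequences shown by the annotation for these genes, and a match of letters does not show that Puf3 bound there.

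Total reads per library ran between 5442935 and 7289514, and the 31 genes together took 31795 to 67860 of them. RAD30 itself had 0 reads in all 6 rad30Δ libraries and 229 to 350 reads in the WT libraries. The galactose gene GAL1 had 6120 to 7400 CPM (reads scaled to library size, with TMM factors) in the libraries after DSB induction, against 19.2 to 33.7 CPM in those from arrested cells, so breaks, galactose and 1 more hour in arrest cannot be told apart in this design. The a-specific STE2 was at 13.4 to 19.9 CPM in rad30Δ libraries, against 376 to 596 CPM in WT libraries, and the α-specific STE3 at 82.1 to 663 CPM in rad30Δ libraries, against 4.72 to 12.5 CPM in WT libraries. The labels give no mating type, and in these libraries strain and mating type cannot be told apart. The paper's strain list has rad30Δ strains with P_GAL-HO of both mating types. Those of mating type α also carry a temperature-sensitive SMC1 allele, a galactose-driven SMC1 copy and LEU2, HIS3 and URA3 insertions. WT strains of mating type a with P_GAL-HO are listed with and without these. The labels do not name the strains sequenced, and a difference at these loci was not tested. Replicate 3 of the rad30Δ cells after DSB induction stood apart, with 0.207% of its reads from mitochondrial DNA, where the other 11 had 0.0115% to 0.0749%, and a TMM factor of 0.873, against 0.971 to 1.047. The main counts and medians are therefore also given without it, as are the differences over WT of single members that moved by over 1.5 times when it was left out. Nothing in the labels says that the replicates came from separate cultures, so the p-values rest on a spread between samples that may be technical.

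Summed over the 31 genes, the level was highest in rad30Δ cells. It was 7865, 7698 and 11200 CPM in rad30Δ cells after DSB induction, and 9242, 9015 and 9707 CPM in G2/M arrested rad30Δ cells. The WT sums were 6206, 5891 and 6331 CPM after DSB induction and 7347, 6770 and 6788 CPM in G2/M arrest. Thus each of the 6 rad30Δ libraries lay above each of the 6 WT libraries. Relative to WT, the mean sum in rad30Δ cells was 1.34 times as high in G2/M arrest and 1.45 times as high after DSB induction (1.27 times without replicate 3). As shares of all reads the genes took 0.77% to 0.978% in rad30Δ cells after DSB induction, 0.931% to 0.999% in arrested rad30Δ cells, 0.584% to 0.629% in WT cells after DSB induction and 0.706% to 0.753% in arrested WT cells. In bulk cultures fewer cells with an RNA and less of that RNA per cell cannot be told apart.

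**Figure D1:**
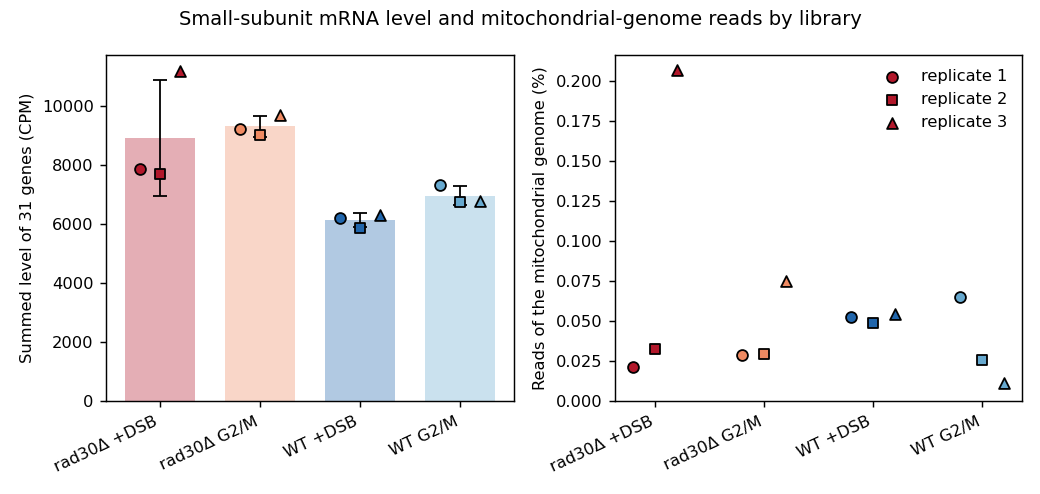
Left, CPM summed over the 31 small-subunit genes in each library, with bars for the mean and error bars for the SD of 3 libraries per group. Right, percent of reads on the mitochondrial genome. Replicate 3 of the rad30Δ cells after DSB induction (triangle) is the highest point of both panels, at 11200 CPM and 0.207%, and all rad30Δ points of the left panel lie above all WT points.

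Per kilobase of coding length, MRPS12 was the most abundant member and RSM22 the least. MRPS12 encodes uS12m, the counterpart of the bacterial protein beside the decoding site. It had 933 ± 94 RPKM in rad30Δ cells after DSB induction, 1080 ± 75.7 RPKM in arrested rad30Δ cells, 752 ± 39.9 RPKM in WT cells after DSB induction and 808 ± 23.5 RPKM in arrested WT cells (CPM per kilobase of coding length, SD, n = 3). RSM22, which encodes a methyltransferase-like protein associated with the subunit, had 90.1 ± 19.8, 88.4 ± 1.73, 88.4 ± 3.09 and 93.7 ± 4.89 RPKM in these groups. Between them, the averages over all libraries ran without a gap from 201 RPKM (MRPS5) to 560 RPKM (MRPS18) and 562 RPKM (MRPS9), with MRPS16 at 748 RPKM and MRPS12 at 892 RPKM. RSM22 was the only member under 201 RPKM.

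In G2/M arrest, 17 of the 31 genes were higher in rad30Δ than in WT cells and none was lower (edgeR, quasi-likelihood F test, Benjamini-Hochberg adjusted p under 0.05 over 6490 genes). Of all genes tested, 4.71% were called higher and 6.1% lower. The median log2 fold change of the members was 0.45, against 0 over all genes, and 30 of 31 fold changes were positive. In 29 members all 3 rad30Δ libraries lay above all 3 WT libraries, which 15.7% of all genes did. Of the 19 genes with a bacterial homolog 11 were called (median 0.42), and of the 12 mitochondria-specific genes 6 (median 0.45). Without replicate 3 of the rad30Δ cells after DSB induction, 19 and 9 were called with the same medians. The number called moved with single libraries: 28 passed without replicate 3 of the rad30Δ cells after DSB induction (8.16% of all genes), while 9 passed without replicate 1 or without replicate 3 of the arrested rad30Δ cells, and 11, 6 and 7 without replicates 1, 2 and 3 of the arrested WT cells (2.02% to 3.11% of all genes in these 5 fits). The median stayed between 0.41 and 0.48 in all fits that left out 1 library. With all libraries, the median coefficient of variation of the members was 21.7% in rad30Δ cells after DSB induction, against 4.39% in arrested rad30Δ cells, 4.0% in WT cells after DSB induction and 5.21% in arrested WT cells, and all groups share one estimate of the spread.

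After DSB induction, 24 of the 31 genes were higher in rad30Δ than in WT cells and none was lower in the same test, with 11.6% of all genes called higher. The median log2 fold change was 0.57, against 0 over all genes, and all 31 fold changes were positive. In 27 members the 2 groups did not overlap, against 17.8% of all genes. Without replicate 3 of the rad30Δ cells the median was 0.35, 28 fold changes were positive and 22 genes passed, with 15% of all genes then called higher. The members called were 14 of 19 with a bacterial homolog (median 0.52, or 0.35 with 14 called without replicate 3) and 10 of 12 mitochondria-specific ones (median 0.61, or 0.40 with 8 called). The calls of MRP13 and RSM27 were the ones that ended without that library. Both comparisons called MRP1, MRP2, MRP4, MRP21, MRP51, MRPS5, MRPS8, MRPS12, MRPS17, MRPS28, MRPS35, NAM9, RSM23, RSM25, RSM28, PET123 and SWS2, which are 17 genes. Another 7 passed only after DSB induction (MRP13, MRPS9, RSM7, RSM10, RSM24, RSM26 and RSM27) and 7 passed in neither (MRP10, MRP17, MRPS16, MRPS18, RSM18, RSM19 and RSM22). In 20 members every rad30Δ library, before or after breaks, lay above every WT library, against 4.88% of all genes tested.

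**Figure D2:**
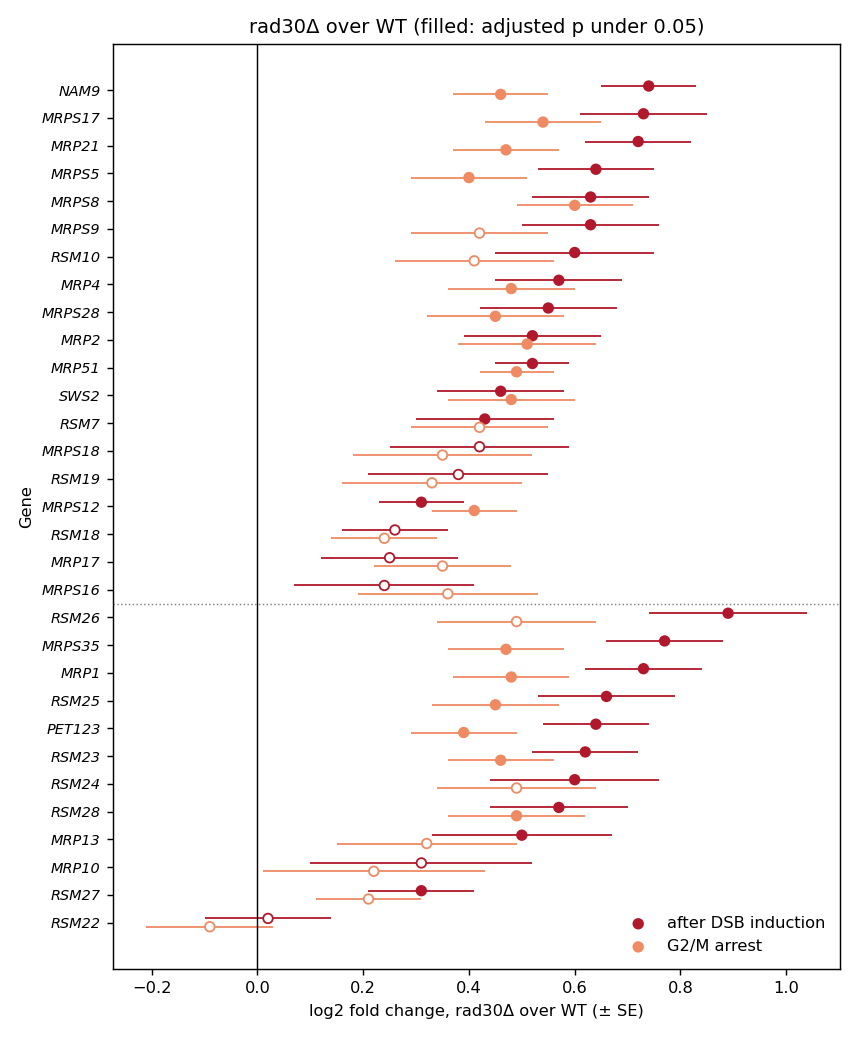
log2 fold change of rad30Δ over WT with its SE for each of the 31 genes, after DSB induction (dark red) and in G2/M arrest (orange). Filled points passed an adjusted p of 0.05 in edgeR, 24 after DSB induction and 17 in G2/M arrest. The dotted line separates genes with a bacterial homolog (above) from mitochondria-specific ones (below), and RSM22, the bottom row, is the only gene on the line of no change in both.

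Among the genes with a bacterial homolog, NAM9 (YNL137C, chrXIV:368595-370055) encodes uS4m, a protein of the subunit body that binds rRNA early in assembly in bacteria. NAM9 had 352, 337 and 439 CPM in rad30Δ cells after DSB induction and 410, 421 and 396 CPM in arrested rad30Δ cells, against 218, 224 and 232 CPM in WT cells after DSB induction and 304, 290 and 296 CPM in arrested WT cells. The strains did not overlap in either state. The log2 fold change of rad30Δ over WT was 0.46 ± 0.09 in G2/M arrest (SE, edgeR adjusted p = 0.00495) and 0.74 ± 0.09 after DSB induction (adjusted p = 1.21e-04), the smallest adjusted p of any member. NAM9 passed in 3 of the 4 comparisons of groups, as did MRPS35 and PET123.

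MRP51 (YPL118W, chrXVI:326628-327662) encodes bS1m, which in yeast takes part in translation of mitochondrial mRNAs through their leaders. It had 361, 338 and 392 CPM in rad30Δ cells after DSB induction and 409, 404 and 428 CPM in arrested rad30Δ cells, against 257, 246 and 258 CPM in WT cells after DSB induction and 298, 302 and 286 CPM in arrested WT cells. This was the steadiest member in rad30Δ cells after DSB induction, with a coefficient of variation of 7.51%, and with MRPS12 it was 1 of 2 members in which replicate 3 was not the highest of all 12 libraries. Its log2 fold changes over WT were 0.49 ± 0.07 in arrest (adjusted p = 5.17e-04) and 0.52 ± 0.07 after DSB induction (adjusted p = 2.25e-04, edgeR).

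MRP21 (YBL090W, chrII:48825-49358) encodes bS21m. Its levels were 199, 202 and 263 CPM in rad30Δ cells after DSB induction and 226, 217 and 222 CPM in arrested rad30Δ cells, against 130, 133 and 139 CPM in WT cells after DSB induction and 168, 160 and 151 CPM in arrested WT cells. The strains were again apart in every library, by 0.47 ± 0.10 on the log2 scale in arrest (edgeR adjusted p = 0.00714) and 0.72 ± 0.10 after DSB induction (adjusted p = 2.49e-04). MRPS17 (YMR188C, chrXIII:636291-637004), which encodes uS17m, had 300, 292 and 410 CPM in rad30Δ cells after DSB induction and 335, 325 and 364 CPM in arrested rad30Δ cells, against 200, 187 and 216 CPM in WT cells after DSB induction and 244, 231 and 230 CPM in arrested WT cells. No rad30Δ library fell to the WT range, and the log2 fold changes were 0.54 ± 0.11 in arrest and 0.73 ± 0.12 after DSB induction.

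The genes for uS5m, uS8m, uS9m and uS2m also had higher levels in rad30Δ than in WT cells in both states. MRPS5 (YBR251W, chrII:721390-722313) had 202, 192 and 271 CPM in rad30Δ cells after DSB induction and 217, 217 and 213 CPM in arrested rad30Δ cells, against 147, 136 and 142 CPM in WT cells after DSB induction and 172, 161 and 159 CPM in arrested WT cells. MRPS8 (YMR158W, chrXIII:572248-572715) had 124, 127 and 176 CPM in rad30Δ cells after DSB induction and 149, 146 and 156 CPM in arrested rad30Δ cells, against 89.0, 90.8 and 94.4 CPM in WT cells after DSB induction and 104, 94.7 and 99.4 CPM in arrested WT cells. In these genes the lowest rad30Δ library was replicate 1 or 2 after DSB induction, and it still lay above the highest WT library. MRPS8 had the largest log2 fold change of all members in G2/M arrest, 0.60 ± 0.11 (edgeR adjusted p = 0.00367).

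MRPS9 (YBR146W, chrII:535260-536096) had 462, 467 and 696 CPM in rad30Δ cells after DSB induction and 556, 554 and 594 CPM in arrested rad30Δ cells, against 348, 340 and 360 CPM in WT cells after DSB induction and 452, 404 and 415 CPM in arrested WT cells. MRP4 (YHL004W, chrVIII:99219-100403) had 445, 454 and 646 CPM in rad30Δ cells after DSB induction and 541, 574 and 602 CPM in arrested rad30Δ cells, against 351, 327 and 359 CPM in WT cells after DSB induction and 419, 394 and 417 CPM in arrested WT cells. MRPS9 missed the threshold in arrest (0.42 ± 0.13, edgeR adjusted p = 0.056) although its groups did not overlap, and passed after DSB induction (0.63 ± 0.13, adjusted p = 0.00439). MRP4 passed in both, with 0.48 ± 0.12 (adjusted p = 0.022) and 0.57 ± 0.12 (adjusted p = 0.00508). Without replicate 3 the values after DSB induction were 0.41 for MRPS9 and 0.38 for MRP4, and both passed. The MRP4 reading frame overlaps the end of YHL005C on the other strand, and the sources do not say if strand entered the counting.

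MRPS12 (YNR036C, chrXIV:694361-694822) and SWS2 (YNL081C, chrXIV:476188-476619), which encodes uS13m, passed over WT in both states. MRPS12 had 424, 391 and 477 CPM in rad30Δ cells after DSB induction and 519, 456 and 515 CPM in arrested rad30Δ cells, against 347, 329 and 366 CPM in WT cells after DSB induction and 385, 370 and 364 CPM in arrested WT cells. SWS2 had 198, 199 and 278 CPM in rad30Δ cells after DSB induction and 253, 237 and 263 CPM in arrested rad30Δ cells, against 169, 162 and 158 CPM in WT cells after DSB induction and 202, 174 and 164 CPM in arrested WT cells. Their log2 fold changes over WT were no larger after DSB induction than in arrest. MRPS12 had 0.31 ± 0.08 after DSB induction (edgeR adjusted p = 0.0192) and 0.41 ± 0.08 in arrest (adjusted p = 0.00696), and SWS2 had 0.46 ± 0.12 after DSB induction (adjusted p = 0.0174) and 0.48 ± 0.12 in arrest (adjusted p = 0.0249). Without replicate 3, SWS2 was at 0.28 after DSB induction and still passed. For the other members with a bacterial homolog the log2 fold changes over WT were 0.45 in arrest and 0.55 after DSB induction for MRPS28 (YDR337W, uS15m) and 0.51 and 0.52 for MRP2 (YPR166C, uS14m), which both passed in both states, and 0.42 and 0.43 for RSM7 (YJR113C, uS7m) and 0.41 and 0.60 for RSM10 (YDR041W, uS10m), which passed after DSB induction. MRP17 (YKL003C, bS6m), MRPS16 (YPL013C, bS16m), MRPS18 (YNL306W, uS11m), RSM18 (YER050C, bS18m) and RSM19 (YNR037C, uS19m) passed in neither, with 0.24 to 0.36 in arrest and 0.24 to 0.42 after DSB induction. Without replicate 3 the values after DSB induction were lower for all of these genes. They were 0.36 for MRPS28, 0.35 for MRP2, 0.24 for RSM7 and 0.35 for RSM10, which still passed, and -0.03 for MRPS16, 0.04 for MRP17, 0.11 for MRPS18 and RSM19 and 0.12 for RSM18.

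Among the mitochondria-specific genes, MRPS35 (mS45), MRP1 (mS43) and PET123 (mS26) had the smallest adjusted p after DSB induction. Pet123 is tied by genetics to Pet122, an activator of COX3 mRNA translation. MRPS35 (YGR165W, chrVII:829116-830153) had 257, 233 and 336 CPM in rad30Δ cells after DSB induction and 297, 292 and 284 CPM in arrested rad30Δ cells, against 165, 154 and 165 CPM in WT cells after DSB induction and 220, 207 and 201 CPM in arrested WT cells. MRP1 (YDR347W, chrIV:1169178-1170143) had 368, 379 and 515 CPM in rad30Δ cells after DSB induction and 425, 440 and 438 CPM in arrested rad30Δ cells, against 250, 250 and 259 CPM in WT cells after DSB induction and 323, 295 and 318 CPM in arrested WT cells. PET123 (YOR158W, chrXV:632164-633120) had 263, 237 and 334 CPM in rad30Δ cells after DSB induction and 300, 307 and 294 CPM in arrested rad30Δ cells, against 178, 173 and 184 CPM in WT cells after DSB induction and 238, 231 and 219 CPM in arrested WT cells. In MRPS35 and MRP1 every rad30Δ library was above every WT library, whereas replicate 2 of PET123 in rad30Δ cells after DSB induction (237 CPM) lay just under replicate 1 of the arrested WT cells (238 CPM). Over WT, the log2 fold change after DSB induction was 0.77 ± 0.11 for MRPS35 (edgeR adjusted p = 3.68e-04), 0.73 ± 0.11 for MRP1 (adjusted p = 4.65e-04) and 0.64 ± 0.10 for PET123 (adjusted p = 9.46e-04). In arrest it was 0.47 ± 0.11, 0.48 ± 0.11 and 0.39 ± 0.10 for these genes, all past the threshold.

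RSM23 encodes mS29, whose human counterpart is DAP3, and RSM25 and RSM26 encode mS23 and mS42. RSM23 (YGL129C, chrVII:267723-269075) had 286, 281 and 383 CPM in rad30Δ cells after DSB induction and 351, 350 and 335 CPM in arrested rad30Δ cells, against 203, 214 and 199 CPM in WT cells after DSB induction and 264, 251 and 240 CPM in arrested WT cells. RSM25 (YIL093C, chrIX:187990-188784) had 210, 201 and 302 CPM in rad30Δ cells after DSB induction and 238, 241 and 257 CPM in arrested rad30Δ cells, against 151, 145 and 156 CPM in WT cells after DSB induction and 189, 176 and 173 CPM in arrested WT cells. RSM26 (YJR101W, chrX:618234-619034) had 246, 240 and 393 CPM in rad30Δ cells after DSB induction and 312, 321 and 294 CPM in arrested rad30Δ cells, against 169, 150 and 156 CPM in WT cells after DSB induction and 238, 212 and 211 CPM in arrested WT cells. All 3 genes kept the strains apart in every library. RSM26 had the largest fold change of any member, 0.89 ± 0.15 on the log2 scale after DSB induction (edgeR adjusted p = 0.00149), but missed the threshold in arrest (0.49 ± 0.15, adjusted p = 0.0595). Of the other mitochondria-specific genes, RSM28 (YDR494W, mS46) passed in both states with 0.49 and 0.57, RSM24 (YDR175C, mS35), MRP13 (YGR084C, mS44) and RSM27 (YGR215W, mS33) passed after DSB induction with 0.60, 0.50 and 0.31, and MRP10 (YDL045W-A, mS37) passed in neither, with 0.22 in arrest and 0.31 after DSB induction. Without replicate 3 the values after DSB induction were 0.35 for RSM28 and 0.33 for RSM24, which still passed, 0.21 for MRP13 (edgeR adjusted p = 0.0826) and 0.18 for RSM27 (adjusted p = 0.12), which no longer did, and -0.08 for MRP10.

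RSM22 (YKL155C, chrXI:159456-161342) was the exception. It had 153, 144 and 213 CPM in rad30Δ cells after DSB induction and 169, 163 and 169 CPM in arrested rad30Δ cells, against 165, 162 and 173 CPM in WT cells after DSB induction and 187, 170 and 173 CPM in arrested WT cells. The arrested rad30Δ libraries lay under all arrested WT libraries by a narrow margin, as in 16.6% of all genes, and after DSB induction the strains overlapped. Its log2 fold change over WT was -0.09 ± 0.12 in arrest (edgeR adjusted p = 0.736) and 0.02 ± 0.12 after DSB induction (adjusted p = 0.912), and -0.17 ± 0.07 after DSB induction without replicate 3. RSM22 thus combined the lowest level per length, the lack of the Puf3-type letters and a fold change near 0, and with 1 such gene no relation between these can be tested.

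**Figure D3:**
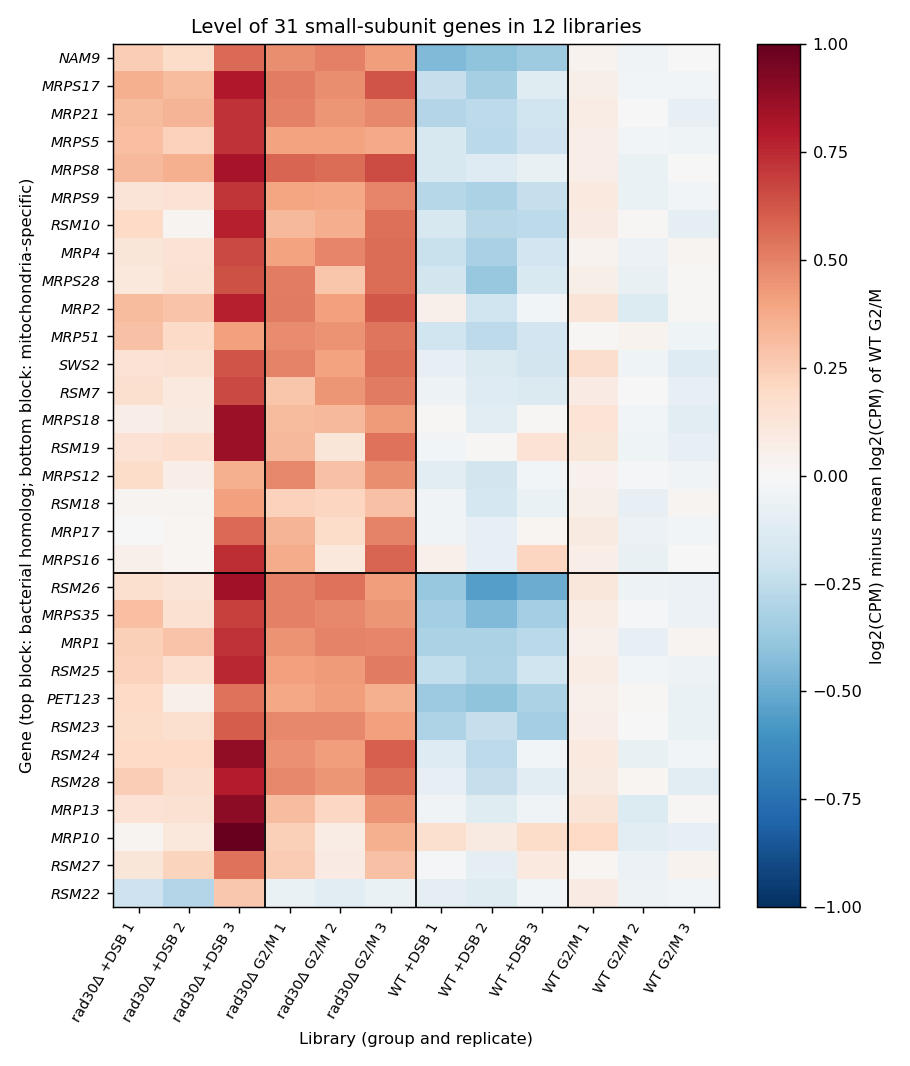
Level of the 31 genes (rows) in the 12 libraries (columns) as log2(CPM) minus the mean log2(CPM) of the 3 arrested WT libraries, on a colour scale that runs between -1 and 1. The rad30Δ columns are red for nearly all genes, the WT columns after DSB induction are mostly blue, and replicate 3 of the rad30Δ cells after DSB induction is the reddest column. RSM22, in the bottom row, stays pale or blue in 5 of the 6 rad30Δ columns.

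Genes with the letters TGTANATA were then compared with the rest as a description, with no test. Of 838 tested nuclear genes with the letters, 16.3% were called higher in rad30Δ than in WT cells in G2/M arrest, against 3.22% of 5029 genes without them, and 32.3% against 9.45% after DSB induction (32.6% against 13.5% without replicate 3). Called lower were 4.53% against 7.1% in arrest and 8.35% against 13.3% after DSB induction (13.2% against 17.4% without replicate 3). Leaving out the small and large subunit and the other listed mitochondrial genes, 728 genes with the letters remained. Of these, 11.1% were called higher and 5.08% lower in arrest, and 25.5% higher and 9.48% lower after DSB induction. Without replicate 3, 26.4% of them were called higher and 15.1% lower after DSB induction. With all libraries, their median log2 fold changes were 0.06 in arrest and 0.09 after DSB induction. The members, with medians of 0.45 and 0.57, thus lay above these 728 genes. Without replicate 3 the medians after DSB induction were 0.35 for the members and 0.06 for the 728 genes. The 44 large-subunit genes, which all have the letters, were level with the members. Their medians were 0.44 in arrest and 0.52 after DSB induction (0.36 without replicate 3). Among the members the median after DSB induction was 0.57 for the 17 with TGTAAATA first, 0.60 for the 6 with TGTACATA first and 0.46 for the 7 with TGTATATA first, or 0.36, 0.42 and 0.28 in this order without replicate 3. PUF3 itself had 44.1 ± 8.5 CPM in rad30Δ cells after DSB induction, 52.8 ± 3.81 CPM in arrested rad30Δ cells, 36.8 ± 1.24 CPM in WT cells after DSB induction and 47.5 ± 2.1 CPM in arrested WT cells (SD, n = 3), and passed the edgeR test in no comparison (adjusted p = 0.0604 to 0.491 over the 4 comparisons of groups). Without replicate 3 it passed as higher in rad30Δ than in WT cells after DSB induction (0.41 ± 0.09, adjusted p = 0.00405) and as lower after DSB induction in WT cells (-0.37 ± 0.08, adjusted p = 0.00628).

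Since the members moved together, the 250 bases before and 50 after each start codon were searched on both strands for letters of common promoter elements. The consensus of Abf1, a general regulatory factor, was found for 9 of the 31 members (29.0%), against 12% of 5985 such windows of nuclear protein-coding genes. TTACCCG, the core of the Reb1 element, was found for 5 (16.1%, against 7.1%), CCAAT for 14 (45.2%, against 43.3%), CACGTG for 2 (6.45%, against 2.91%) and TATAAA for 7 (22.6%, against 45.2%). The only CCAAT of MRP17, MRP51, RSM23 and RSM24 and the only TATAAA of MRP2 lie in the coding part of the window. Of the 44 large-subunit genes, 29.5% had the Abf1 consensus, 13.6% TTACCCG, 38.6% CCAAT and 40.9% TATAAA, and none had CACGTG. No set of letters was shared by most members, unlike the letters after the stop codon. The promoters of NAM9 and PET123 are printed because both genes passed in 3 of the 4 comparisons. Capitals mark every match to these letters on either strand, the matches do not overlap, and the last 50 bases are coding sequence.
NAM9, chrXIV:370006-370305, minus strand: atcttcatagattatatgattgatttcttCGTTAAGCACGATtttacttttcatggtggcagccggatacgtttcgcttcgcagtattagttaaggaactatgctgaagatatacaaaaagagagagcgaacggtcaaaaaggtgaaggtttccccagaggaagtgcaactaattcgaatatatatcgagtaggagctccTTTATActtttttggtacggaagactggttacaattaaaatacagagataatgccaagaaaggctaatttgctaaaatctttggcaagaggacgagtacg
PET123, chrXV:631914-632213, plus strand: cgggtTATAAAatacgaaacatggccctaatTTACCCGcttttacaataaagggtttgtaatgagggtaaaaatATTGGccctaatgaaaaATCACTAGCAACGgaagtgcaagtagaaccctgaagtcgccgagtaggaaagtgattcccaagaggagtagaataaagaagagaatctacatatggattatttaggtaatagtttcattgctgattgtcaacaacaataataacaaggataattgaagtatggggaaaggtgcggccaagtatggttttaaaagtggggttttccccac
In NAM9 the capitals are an Abf1-type match that begins 221 bases before the start codon and TATAAA at 50 bases, both on the opposite strand. In PET123 they are TATAAA at 245 bases, the Reb1-type letters at 219, CCAAT on the opposite strand at 176 and an Abf1-type match at 159 bases before the start codon.

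After DSB induction in WT cells, 3 of the 31 genes were lower than in arrested WT cells and none was higher (edgeR, Benjamini-Hochberg adjusted p under 0.05). Of all genes tested 6.29% were called lower and 6.07% higher. The genes were NAM9 (-0.40 ± 0.09 on the log2 scale, adjusted p = 0.0137), PET123 (-0.36 ± 0.10, adjusted p = 0.04) and MRPS35 (-0.38 ± 0.11, adjusted p = 0.0417). Their levels, given above for each library, did not overlap between the 2 states: NAM9 was at 218 to 232 CPM after DSB induction and at 290 to 304 CPM in arrest. The median over the members was -0.15, against 0 over all genes, and 28 fold changes were negative. In 16 members all 3 libraries after DSB induction lay under all 3 from arrested cells, which 22.9% of all genes did.

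The largest negative value, -0.48 ± 0.15 for RSM26, missed the threshold (edgeR adjusted p = 0.0605), as did MRP51 with -0.22 ± 0.07 (adjusted p = 0.0553). Values above 0 were seen for MRP10 (0.14), MRPS16 (0.07) and RSM19 (0.04). The number that passed depended on single libraries. It was 14 without replicate 3 of the rad30Δ cells after DSB induction, with 11.3% of all genes then called lower, and 6 without replicate 1 or 2 of that group. It was 1 without replicate 1 or 2 of the arrested rad30Δ cells, 0, 0 and 1 without replicates 1, 2 and 3 of the WT cells after DSB induction, and 0, 1 and 1 without replicates 1, 2 and 3 of the arrested WT cells. In these fits 2.02% to 9.4% of all genes were called lower, apart from the 11.3% given. Fitted on the 6 WT libraries alone, 15 passed, with 17.1% of all genes called lower.

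In WT cells the longer members tended to have the lower values. Across the 31 members the log2 fold change after DSB induction and the log2 coding length had Pearson's r = -0.65 and Spearman's rho = -0.63. The 10 shortest members (276 to 468 bases) had a median of -0.04 and the 10 longest (960 to 1887 bases) a median of -0.23. The 44 large-subunit genes had r = -0.59, whereas 2115 other genes at least as abundant as the lowest member had r = -0.05. These are correlations across genes that share the same 6 libraries, and genes are not independent replicates. The WT log2 fold change of the members also had r = -0.41 with their log2 mean CPM. In rad30Δ cells, with all libraries, the members had r = -0.29 with coding length and the large-subunit genes r = 0.19. RSM22, the longest member, lay off the pattern of length in WT cells with -0.08 ± 0.12.

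**Figure D4:**
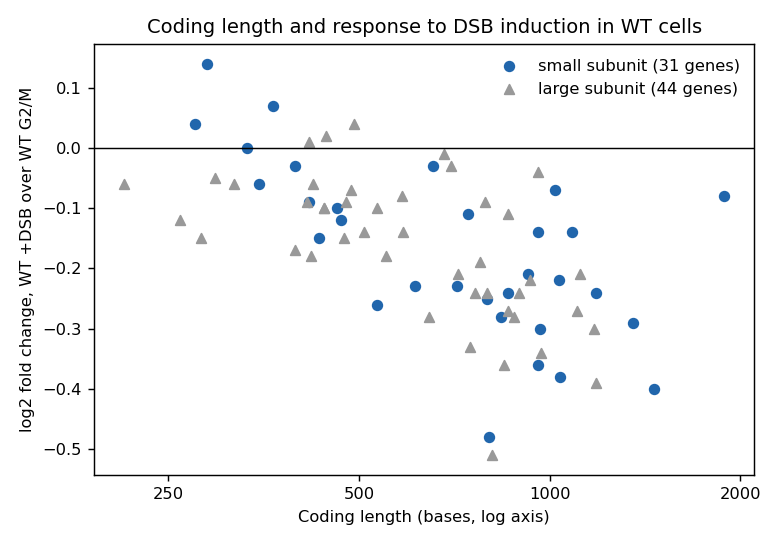
log2 fold change after DSB induction in WT cells against coding length (log axis) for the 31 small-subunit genes (blue circles) and 44 large-subunit genes (grey triangles). The points tend downward to the right, with r = -0.65 for the small subunit and r = -0.59 for the large subunit, and a wide scatter that includes longer genes near 0, such as RSM22, the circle farthest to the right.

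In rad30Δ cells, no member passed between the state after DSB induction and G2/M arrest, with 2.65% of all genes called lower and 3.68% higher. The median log2 fold change was -0.06, 24 of 31 values were negative, 2 members (MRP51 and MRPS12) had an unadjusted p under 0.05, and DESeq2 also called 0 members. MRP51 had -0.19 ± 0.07 (edgeR adjusted p = 0.135), MRPS12 -0.21 ± 0.08 (adjusted p = 0.175), NAM9 -0.12 ± 0.09 (adjusted p = 0.446) and SWS2 -0.16 ± 0.12 (adjusted p = 0.466). Without replicate 3 these were -0.24, -0.28, -0.25 and -0.34 in this order, and all passed. With all libraries, MRP51 was the member whose libraries did not overlap between the states, which 10.5% of all genes did in this direction.

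This comparison turned on 1 library. Replicate 3 after DSB induction was the highest of its group for all 31 members and the highest of all 12 libraries for 29, while replicates 1 and 2 lay under every arrested rad30Δ library for 28 (18.9% of all genes). Without replicate 3, all 31 fold changes were negative, with a median of -0.26 against -0.01 over all genes, and 20 members passed as lower, with 4.71% of all genes called. They included MRP4 (-0.35 ± 0.07, adjusted p = 0.00576), RSM26 (-0.35 ± 0.07, adjusted p = 0.0122) and RSM23 (-0.28 ± 0.06, adjusted p = 0.0147) in edgeR. Without replicate 1 or 2, by contrast, no member passed, and the median was 0.03 and 0.05. Replicate 3 also held the most 15S rRNA reads, 3096 against 173 to 1349 in the other libraries. In each of the 4 groups, the library with the highest member sum also had the highest share of mitochondrial-genome reads. Beside replicate 3 these were replicate 3 of the arrested rad30Δ cells (9707 CPM and 0.0749%), replicate 3 of the WT cells after DSB induction (6331 CPM and 0.0542%) and replicate 1 of the arrested WT cells (7347 CPM and 0.065%). Among the remaining libraries this order held in WT cells after DSB induction and was the opposite in the other groups. In rad30Δ cells after DSB induction, replicate 1 had 7865 CPM and 0.0216%, and replicate 2 had 7698 CPM and 0.0328%. The part of mitochondrial-genome reads in the member levels was not tested. In replicates 1 and 2 after DSB induction, 22 members still lay above all 3 arrested WT libraries, as did 22% of all genes.

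**Figure D5:**
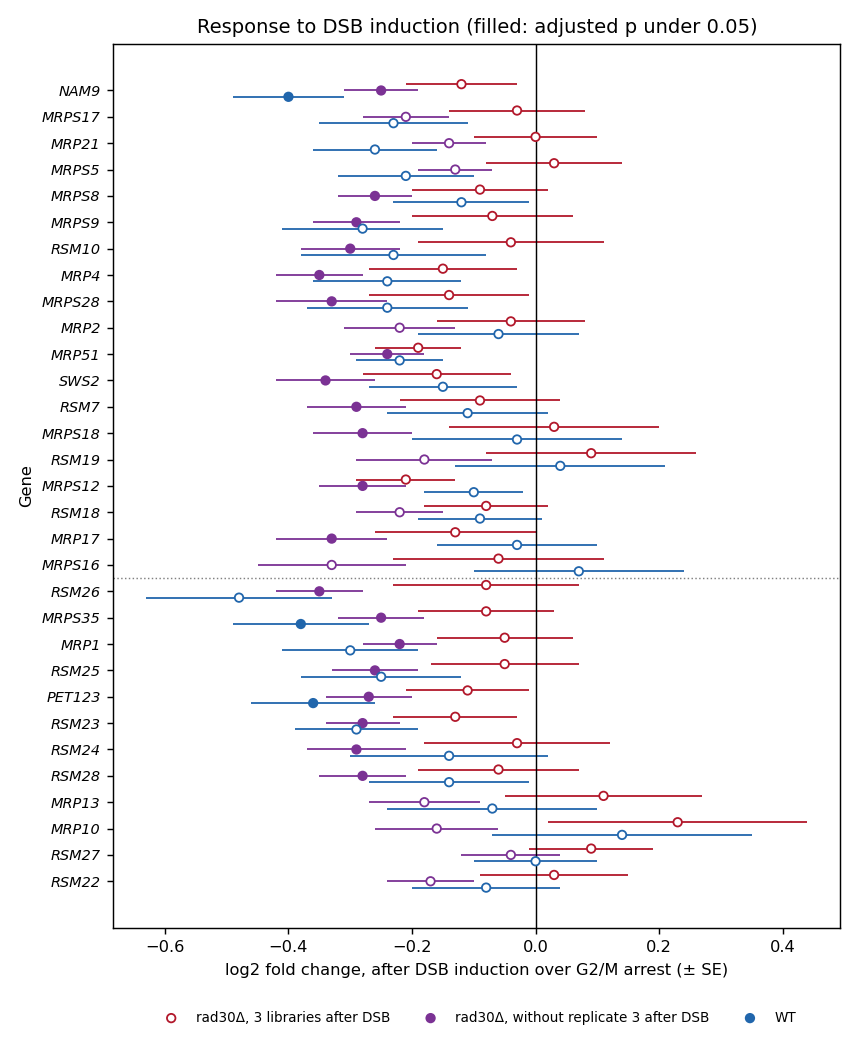
log2 fold change after DSB induction over G2/M arrest, with its SE, for each gene in rad30Δ cells with all 3 libraries after DSB induction (red), in rad30Δ cells without replicate 3 (purple) and in WT cells (blue). Filled points passed an adjusted p of 0.05 in edgeR: 0 red, 20 purple and 3 blue ones, and all 31 purple points lie left of 0.

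The response to DSB induction was not shown to differ between the strains for any member. In the interaction of strain and DSB induction 0 members passed in edgeR, and 0 in DESeq2, with 0.0616% of all genes called, all negative. The smallest unadjusted p was 0.0498 for NAM9 (0.28 ± 0.13, adjusted p = 0.373), followed by MRPS35 (0.30 ± 0.16, adjusted p = 0.429), RSM26 (0.40 ± 0.22, adjusted p = 0.45) and MRP21 (0.25 ± 0.14, adjusted p = 0.452). The median over the members was 0.10 with 27 positive values. It was -0.09 with 9 positive values, and again no member passed, without replicate 3 of the rad30Δ cells after DSB induction, where 1.17% of all genes were called positive and 1.0% negative. The comparisons share groups, so their values stand side by side here and are not independent of each other.

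The members also varied together from library to library within a group. After the group means were removed, the median correlation between members was 0.90 over 12 libraries, 0.89 between members and large-subunit genes, and 0.24 between members and the 2115 other genes of at least their lowest level. Without replicate 3 of the rad30Δ cells after DSB induction these values were 0.53, 0.48 and 0.05 over 11 libraries. They are a description, since the genes share libraries and scaling factors. Within groups, the coefficient of variation ran between 7.51% (MRP51) and 41.7% (MRP10) in rad30Δ cells after DSB induction, and between 1.09% (MRPS5) and 16.3% (MRPS16) in arrested rad30Δ cells. MRP10, which encodes a small cysteine-rich protein of the subunit, was also the most variable member in arrested WT cells, at 12.3%.

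The other parts of the small subunit and of mitochondrial translation were measured beside the members. The mitochondrial-genome gene VAR1 had 0 to 13 reads per library and 15S rRNA 173 to 3096, and neither passed a test. QRI5, FYV4 and EHD3, nuclear genes tied to the subunit, had log2 fold changes over WT of 0.39, 0.40 and 0.18 in arrest and 0.30, 0.45 and 0.39 after DSB induction (0.10, 0.17 and 0.33 without replicate 3), and EHD3 after DSB induction passed (edgeR adjusted p = 0.00255). Of the 44 large-subunit genes 25 were higher in rad30Δ cells in arrest (median 0.44) and 36 after DSB induction (median 0.52), and none was lower. Of all genes tested, 4.71% and 11.6% were called higher. Without replicate 3 of the rad30Δ cells after DSB induction the large-subunit counts were 43 (median 0.44) and 35 (median 0.36). The shares of all genes called higher were then 8.16% and 15%. After DSB induction in WT cells 3 of the 44 fell: MRPL9 (-0.51), MRPL10 (-0.34) and MRPL11 (-0.33), with 6.29% of all genes called lower. The median over the 44 was -0.14, and 16 passed as lower without that library, with 11.3% of all genes then called lower.

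Of 17 tested factors for mitochondrial translation and small-subunit assembly, 7 were higher in rad30Δ cells in arrest and 13 after DSB induction (13 and 12 without that library). They included TUF1 for the elongation factor Tu (0.52 and 0.80), MRF1 for the release factor (0.43 and 0.70) and MBA1 for the ribosome receptor of the inner membrane (0.49 and 0.91). Of 24 translational activators and RNA factors, 8 were higher in arrest and 15 after DSB induction (15 in both without that library). Of all genes tested, 4.71% were called higher in arrest and 11.6% after DSB induction (8.16% and 15% without that library). After DSB induction in WT cells 3 of the 24 fell, with 6.29% of all genes called lower: MTF1 for the mitochondrial transcription factor (-0.50), MSS51 (-0.39) and CBS2 (-0.34), activators of COX1 and COB mRNA translation. In rad30Δ cells PET122 rose after DSB induction (0.72 ± 0.17, edgeR adjusted p = 0.0251). It was the 1 factor of the 24 called higher there, with 3.68% of all genes called higher. The lists were made with earlier results of these data known, so their counts are a description beside those of the small subunit.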

How the data were processed

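RNA was enriched for mRNA and sequenced paired-end. Per the submitters' processing notes and the study's methods, reads were checked with FastQC, trimmed with cutadapt, aligned to sacCer3 with HISAT2, sorted with SAMtools, freed of duplicates with Picard and counted per gene with featureCounts. Tool versions and the strand setting are not stated in these sources. The deposited count table holds these whole-number counts for 7123 genes. The authors' tables of comparisons hold their fold changes and p-values from DESeq2 and FPKM from edgeR and were not used, except for the deposited column of gene lengths, another measure, of which 98.1% are multiples of 3 (coding lengths).

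Counts were fitted in R 4.3.3 with edgeR 4.0.16 (TMM, genes with at least 10 reads in total, glmQLFit and glmQLFTest, all 12 libraries, 4 group means). Benjamini-Hochberg adjustment ran over 6490 genes with a threshold of 0.05. SE is the log2 fold change divided by the root of F. The fit was also run on simulated counts drawn with its own estimates of spread. These held no library that stood apart, so they cannot show how the fit fares with such a library. Names and positions came from the R64 annotation (6044 genes matched), the assembly that sacCer3 names, and sequences from its genome. Members and gene lists were chosen with earlier results of these data known. Every member is named, and values of every library are given for the 14 members with the smallest adjusted p among those that passed, for the members with the smallest p where fewer than 4 passed, and for the members with the highest and lowest RPKM. Alternatives were DESeq2 1.42.0, RLE scaling, filterByExpr, no filter, nuclear genes only, the libraries of a comparison alone, replicate blocks and leaving out each library. Residuals of libraries with the same replicate number, 1 from arrest and 1 from after DSB induction, were correlated with each other. In rad30Δ cells the values were 0.19, 0.15 and 0.34 (0.33, 0.27 and 0.42 over genes of at least 10 CPM). In WT cells they were 0.04, 0.10 and 0.00 (0.16, 0.23 and 0.11 over genes of at least 10 CPM). The limit for pairing was 0.1, so over genes of at least 10 CPM both strains were past it. The main fit held no replicate block, and blocks were fitted as alternatives.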

Additional observations from a re-analysis of the deposited data

How the results depend on the processing

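In G2/M arrest, the number higher in rad30Δ cells was 17 and ran between 6 and 28 when 1 library was left out. The share of all genes called higher ran between 2.02% and 8.16% in those fits. The number was 28 with the libraries of the comparison alone, while the median log2 fold change ran between 0.41 and 0.48. After DSB induction the number was 24, with 16 to 27 when 1 library was left out, and the median ran between 0.35 and 0.66. In those fits 6.32% to 15% of all genes were called higher. For DSB induction in rad30Δ cells, 0 to 20 members were lower when 1 library was left out, with 1.19% to 4.97% of all genes called lower. The median ran between -0.26 and 0.05, changing sign without replicate 1 (0.03) or replicate 2 (0.05) after DSB induction. For DSB induction in WT cells, 3 members were lower, 5 with the DESeq2 Wald test, 15 with the libraries of the comparison alone and 0 to 14 when 1 library was left out, with medians between -0.21 and -0.10. The share of all genes called lower was 17.1% with the libraries of the comparison alone. It was 2.02% to 11.3% when 1 library was left out. The median of the interaction ran between -0.09 and 0.22 when 1 library was left out, with a change of sign without replicate 3 of the rad30Δ cells after DSB induction. With a replicate block common to all groups, 19 and 24 members were higher between the strains and 3 were lower in WT cells, and with a replicate block within strain 4 were lower in WT cells and 0 in rad30Δ cells, so the pairing moved no count by over 1.5 times. RLE scaling, both filters and nuclear genes only left each count within 1.5 times of its value. Shares of all genes are not given for these fits, for DESeq2, for the replicate blocks or for the arrest libraries alone. Their counts therefore cannot be set against a change in the calls over all genes. The cause of these shifts was not tested. With 3 libraries per group, 1 library decides many calls, and a gene that missed the threshold is not shown to be equal between groups.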
